A study of Mus musculus with 4 samples.

Results

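Slc26a7, Car4, Scnn1g and Clca1, genes that handle ions, bicarbonate and mucus at epithelial surfaces, were examined in the uterus of mice on embryonic day 3.5, shortly before implantation. They were chosen by name because the uterus table deposited by the authors lists them, so the values of that table selected them and are given as a description without a test. All 4 are among the 903 genes of that table, as the choice fixed. Of the 4, 0 are among the 854 genes of the ovary table. In the ovary 1.01% of all annotated protein-coding genes were listed, so 0 of 4 is near the background. The study exposed pregnant mice to low oxygen 72 hours after fertilization and compared uterus and ovary with those of mice kept in normal oxygen, to ask how low oxygen acts around the implantation window. The 4 groups are uterus and ovary, each from hypoxia and from normoxia (labelled Ctrl), and each group is 1 library made from RNA of 3 pooled samples. The labels give no strain, age or oxygen level.

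Before the embryo attaches, the uterine epithelium controls the volume, pH and mucus of the luminal fluid. Chloride and bicarbonate leave the cells through channels and exchangers, carbonic anhydrases supply or consume bicarbonate by hydrating carbon dioxide, and the epithelial sodium channel takes sodium back from the lumen, with water following. Absorption of this fluid is known to bring the uterine walls close around the embryo in rodents. Ovarian steroid hormones are known to control both secretion and absorption.

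The deposited tables hold log2 fold changes only, and list a gene only where the change is at least 2 in either direction. The numerator of the ratio is not named, and positive values are taken here as higher in hypoxia, so every direction below rests on that assumption. With 1 pooled library per group there is no replicate check, and total depth is unknown. Each fold change in the uterus table equals a ratio of 2 whole numbers times a factor of 0.995 shared by all listed genes, and these whole numbers, called terms, are read here as read counts plus 1. That reading is an inference. Because terms come out in lowest form, the true counts can be larger than those given. Intervals are exact Clopper-Pearson intervals of 95% on the counts and cover counting error only. A list of changed genes leaves out markers that changed less. The uterus table held 1 of 17 markers of the uterine epithelium, Spink1, and 0 of 12 of stroma and myometrium. It held 1.54% of all annotated protein-coding genes, so 0 of 12 is near the background. The labelled tissue could thus not be checked against its defining markers. In bulk tissue, fewer cells of a type and less RNA per cell cannot be told apart.

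RefSeq (GRCm38.p6) upstream sequence was found for 2 of the 4 genes, Car4 and Scnn1g, the pair with negative values. Both are shown so that the regions before these genes can be read side by side, although the Scnn1g value rests on few reads, as given below. Capitals mark every match, on either strand, to ACGTG or GCGTG (cores bound by hypoxia-inducible factors), GGTCA (the estrogen receptor half-site), AGAACA (the progesterone and glucocorticoid receptor half-site), GGGCGG (Sp1) and TATAAA (the TATA box). No matches overlapped.
Car4 (chr11:84957504-84957753, plus strand): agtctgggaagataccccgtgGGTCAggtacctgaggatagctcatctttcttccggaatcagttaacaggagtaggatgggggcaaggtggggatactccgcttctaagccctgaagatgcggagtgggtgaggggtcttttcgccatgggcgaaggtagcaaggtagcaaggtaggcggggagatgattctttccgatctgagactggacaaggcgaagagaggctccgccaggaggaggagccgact
Scnn1g (chr7:121734229-121734419, plus strand): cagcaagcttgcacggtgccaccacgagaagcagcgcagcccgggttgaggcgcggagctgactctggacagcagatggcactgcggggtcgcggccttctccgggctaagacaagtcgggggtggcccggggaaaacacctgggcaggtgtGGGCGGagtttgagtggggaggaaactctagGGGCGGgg

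The 250 bases before RefSeq's start of Car4 held 1 match, the half-site GGTCA, which begins 229 bases before the start. GGTCA occurs in 34.9% of 27025 mouse gene windows of the same length. The Scnn1g stretch, 191 bases after leaving out the 59 that lie in RefSeq's gene body, held 2 GGGCGG boxes, 98 and 67 bases before the transcript start at 121734479, and 23.0% of windows of that length hold at least 1. Neither stretch held the letters ACGTG, which occur in 16.6% of windows of 250 bases and 12.3% of windows of 191 bases. GCGTG was also not found in either stretch and occurs in 28.2% and 21.3% of those windows. The letters AGAACA, in 16.2% and 12.8% of windows, and TATAAA, in 3504 and 2467 of the 27025 windows, were not found either. The 59 bases left out for Scnn1g lie next to the transcript start at 121734479 and were not searched for any of these letters. The Car4 stretch was 56.4% G or C with 11 CpG pairs, and the Scnn1g stretch 67.0% with 14. A match or its lack describes these letters in this window and not binding.

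Slc26a7 encodes an anion exchanger and chloride channel of the SLC26 family, known from the acid-secreting cells of the stomach and the collecting duct of the kidney. Its terms were 2447 in the hypoxia library and 461 in the normoxia library, the sixth largest sum in the uterus table and rank 4 of 337 among protein-coding genes. The authors' deposited table gave it a log2 fold change of 2.40, a 5.28-fold difference, with a counting interval of 4.79 to 5.86. Both libraries held reads of this gene in numbers that keep the counting interval narrow. The other Slc26 gene listed was Slc26a9, an anion channel of stomach and airway epithelium, with terms of 51 and 8. Slc26a9 had a log2 fold change of 2.67 in the authors' deposited table, in the same direction as Slc26a7, and counting error put the fold between 3.21 and 18.6. The family has 11 protein-coding genes in the annotation, and the 9 not named here were not listed in either tissue.

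Car4 encodes carbonic anhydrase 4, an enzyme anchored to the outer face of the cell membrane that interconverts carbon dioxide and bicarbonate, and that also lines capillaries in several organs. Its terms were 116 in hypoxia and 599 in normoxia. The hypoxia library was the lower of the pair, with a log2 fold change of -2.38 in the authors' deposited table. That is 5.19-fold higher in normoxia, with a counting interval of 4.27 to 6.44. Car4 was the only carbonic anhydrase listed in the uterus among the 16 in the annotation, and 0 of the 16 were listed in the ovary. Of all protein-coding genes, 1.54% were listed in the uterus and 1.01% in the ovary, so counts of 0 over so few genes are near the background. The list of 12 endothelial markers had 0 listed members in the uterus, which is also near the background. These markers are relevant because Car4 is also an endothelial enzyme. Sele and Procr, endothelial genes outside that list, were named only through their values, and both differed beyond counting error. The adhesion molecule gene Sele, named after its value was seen, was at -4.24 in the authors' deposited table. The protein C receptor gene Procr, at -2.39 in the authors' deposited table, was picked for a value near that of Car4 and of the same sign. Its direction was thus fixed by the choice. The part of endothelial cells in the Car4 value was not tested. Changes smaller than the threshold of the tables are not visible in either case.

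Clca1 encodes a secreted metalloprotease of mucus-producing goblet cells that increases calcium-activated chloride current. Its terms were 423 in hypoxia and 95 in normoxia, and the authors' deposited table gave 2.15. The fold was 4.43, with a counting interval of 3.57 to 5.65. Clca1 lies in a cluster with the other genes of its family on chromosome 3. The 6 other protein-coding Clca genes, which are neighbours of Clca1 in the genome, were not listed. With 1.54% of all protein-coding genes listed in the uterus and 1.01% in the ovary, 0 of 6 is near the background. Reads of Clca1 could be told from those of the cluster, since 0 of the 3606 windows of 50 bases in its longest transcript occurred in a transcript of another gene. Clca1 has also been used as a name for the neighbouring gene Clca3a1. The value is taken as that of the gene which the annotation calls Clca1.

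Scnn1g encodes the gamma subunit of the epithelial sodium channel, ENaC, which takes up sodium at the apical membrane. Its log2 fold change of -2.33 in the authors' deposited table has about the size of that of Car4, but its terms were 1 in hypoxia and 5 in normoxia. By the reading used here these are 0 and 4 reads. The counting interval for the fold, hypoxia over normoxia, ran from 0 to 1.51 and included a ratio of 1, so no difference was detectable at this depth. With a pseudocount of 5 in place of 1 the value was -0.85. The same pair of terms was found for 65 uterus genes, Scnn1g included. If a common factor of 2 had been lost, the counts would be 1 and 9 and the interval would end at 0.798, so the doubt lies in the table and cannot be settled from it. The alpha subunit gene Scnn1a and the beta subunit gene Scnn1b, the latter a neighbour of Scnn1g within 500 kb, were not listed in either tissue. None of the other 15 genes on the list of sodium channel genes and regulators, among them the kinase gene Sgk1 and the channel-activating protease gene Prss8, was listed in the uterus. With 1.54% of all protein-coding genes listed in the uterus, 0 of 15 is near the background.

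**Figure D1:**
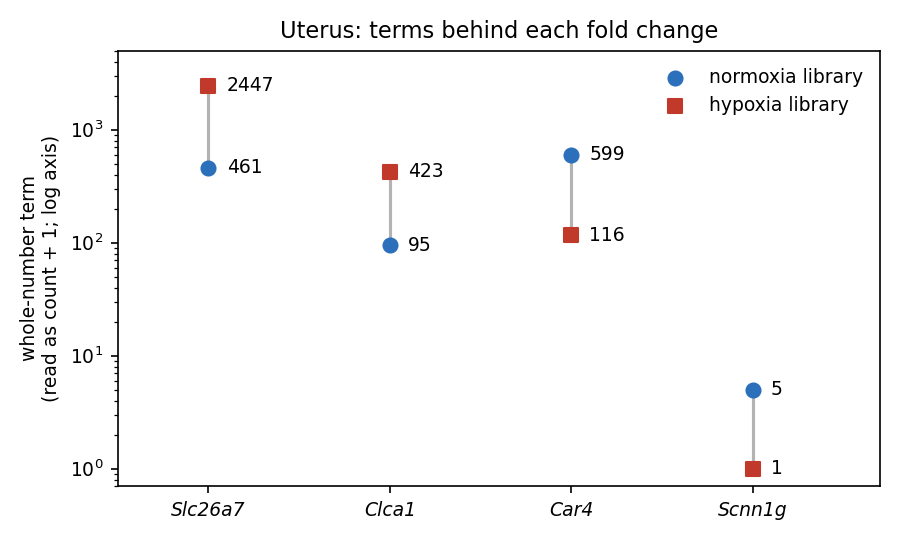
The vertical axis, on a log scale, gives the whole-number terms behind each uterus fold change, for the hypoxia library (red squares) and the normoxia library (blue circles), with 1 pooled library each. Slc26a7 (2447 and 461) and Clca1 (423 and 95) were higher in hypoxia, Car4 (116 and 599) was lower, and Scnn1g rested on terms of 1 and 5.

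The 4 genes stood far apart in the amount of data behind them. By the sum of the terms, Slc26a7 ranked 6, Car4 22, Clca1 27 and Scnn1g 600 among the 903 uterus genes, whose median sum was 8. A term of 1 was found for 604 uterus genes (66.9%), as for Scnn1g. By the size of the fold change none of the 4 stood near the top of its direction: Slc26a7 ranked 287 and Clca1 446 among 491 higher genes, and Car4 144 and Scnn1g 147 among 412 lower genes. Genes ahead of them by fold change include many with small terms, as the plot of all listed uterus genes shows.

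**Figure D2:**
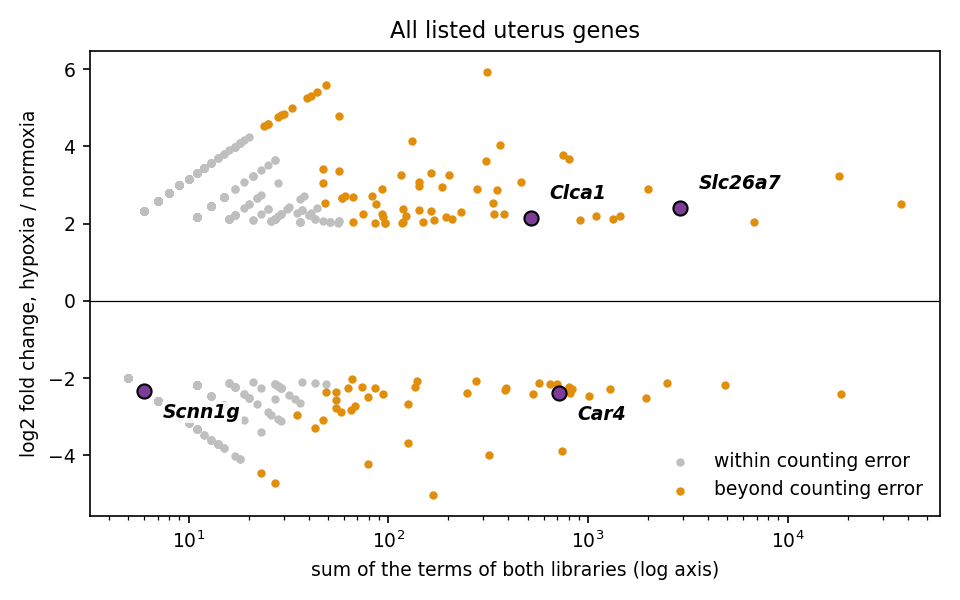
Each point is 1 of the 903 listed uterus genes, with the sum of its 2 terms on a log horizontal axis and the log2 fold change (hypoxia over normoxia) on the vertical axis; orange points differ beyond counting error and grey points do not. The 4 named genes are purple: Slc26a7, Car4 and Clca1 lie among genes with large sums, while Scnn1g lies at a sum of 6 among the grey points.

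Per length the order of the levels was as follows. Exon length was taken from the annotation, and levels are inferred reads per kb of exon within 1 library, before any scaling for depth. In the normoxia library Car4 was the highest of the 4, at 304 reads per kb, followed by Slc26a7 at 84.7, Clca1 at 24.9 and Scnn1g at 1.34. In the hypoxia library Slc26a7 was the highest at 450 reads per kb, followed by Clca1 at 112, Car4 at 58.5 and Scnn1g at 0. Car4 was thus the first of the 4 in normoxia and the third in hypoxia, behind Slc26a7 and Clca1, and Scnn1g was the last of the 4 in each. With 1 library per group, no spread between animals stands behind these orders.

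**Figure D3:**
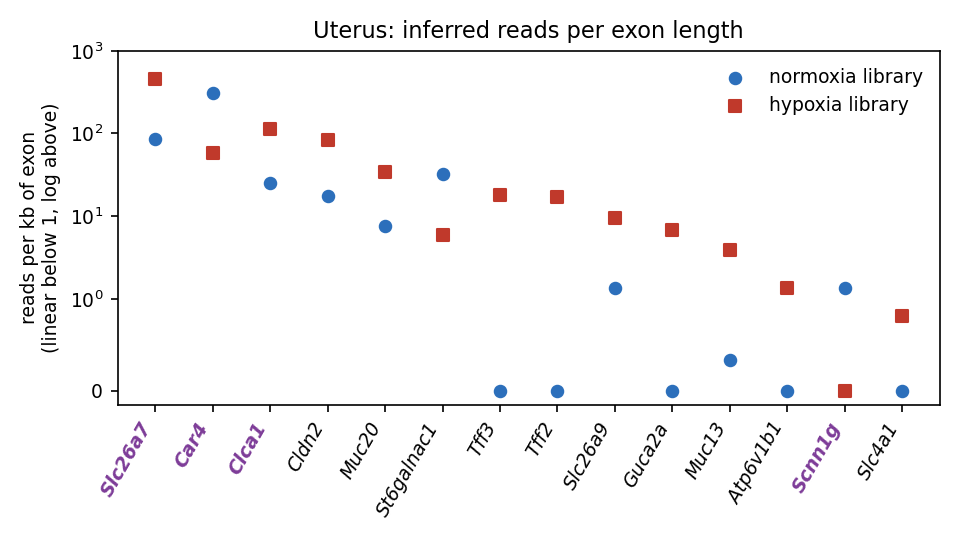
The vertical axis gives inferred reads per kb of exon (linear below 1, log above) for the 14 listed uterus genes of the ion, water and mucus lists, with hypoxia as red squares and normoxia as blue circles; the 4 named genes are in purple. Car4 is the highest of the 14 in normoxia and Slc26a7 in hypoxia, and Scnn1g lies at 1.34 in normoxia and at 0 in hypoxia.

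On GRCm38, the assembly of mm10, Slc26a7 lies on chromosome 4 from 14502430 to 14621805 on the minus strand. Its 20 exon blocks span 119 kb and hold 5.43 kb of exon. Car4 lies on chromosome 11 from 84957786 to 84966044 on the plus strand, with 10 exon blocks. Scnn1g lies on chromosome 7 from 121734479 to 121768475 on the plus strand, with 13 exon blocks. Clca1 lies on chromosome 3 from 145003817 to 145032776 on the minus strand, with 15 exon blocks. None of the 4 overlaps another annotated gene on either strand, and none shared a window of 50 bases of its longest transcript with another gene. Of the protein-coding genes within 500 kb, 4 for Slc26a7, 13 for Car4, 13 for Scnn1g and 11 for Clca1, 0 were listed in either tissue. With 1.54% of all protein-coding genes listed in the uterus, a count of 0 over so few neighbours is near the background.

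The wider set of ion, bicarbonate, water and mucus genes held 212 genes in 9 lists. Of these, 4 have no protein-coding gene of that symbol in the annotation, while the shares of all genes below count annotated protein-coding genes only. In the uterus 14 of the 212 were listed, 11 higher and 3 lower. Without the 4 named genes, 10 of 208 (4.81%) were listed, 9 higher and 1 lower, beside 1.54% of all annotated protein-coding genes, of which 0.876% were higher and 0.661% lower. These lists were drawn up with earlier results of these data known, and no test was made of the difference in shares. Of the 10, 4 differed beyond counting error, which was the case for 12.5% of all listed uterus genes and 25.2% of the listed protein-coding genes. These were Slc26a9, Cldn2, Muc20 and St6galnac1. A term of 1 was found for 5 of the 10, as for 66.9% of all listed uterus genes. Beyond counting error means that an exact binomial test (two-sided) on the reads passed 0.05 after Bonferroni correction over all annotated genes, which compares the 2 libraries and not the conditions.

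Of the 21 anion exchangers and bicarbonate cotransporters, 3 were listed in the uterus, all higher. Without Slc26a7, which the choice of genes fixed, 2 of 20 were listed, beside the 1.54% above. Besides Slc26a9 this was Slc4a1, the anion exchanger of red blood cells and of acid-secreting kidney cells. Slc4a1 had 2.32 in the authors' deposited table, from terms of 5 and 1, with a counting interval from 0.657 that had no upper end. A ratio of 1 was thus included for Slc4a1. Of the 40 sodium, potassium and proton transporters, Atp6v1b1 was listed, a proton pump subunit of specialised acid-secreting cells. Its value was 2.80 in the authors' deposited table, with terms of 7 and 1. None of the 12 aquaporins was listed in either tissue (0 genes). The tight junction list gave 1 of 29, Cldn2, which encodes a claudin that forms a pore for sodium and water between cells. Cldn2 had terms of 281 and 59 and a log2 fold change of 2.25 in the authors' deposited table, and counting error put the fold between 3.61 and 6.49.

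The list of 32 mucins and mucus-associated genes had the most listed members, 6 in the uterus, 5 higher and 1 lower, with Clca1 among the higher. Without Clca1, 5 of 31 were listed, 4 higher and 1 lower, beside the 1.54% above. Muc20, a membrane mucin, had terms of 137 and 32 and a log2 fold change of 2.09 in the authors' deposited table, with a counting interval of 2.94 to 6.68. It shares 627 exon bases with the mucin gene Muc4 on the opposite strand, and without knowledge of strand in the counting its reads cannot be told from those of Muc4 there. The membrane mucin gene Muc13 had 2.69 in the authors' deposited table, from terms of 13 and 2. Muc13 shares 184 exon bases with the gene model Gm15657 on the opposite strand, so the limit given for Muc20 holds there too. The trefoil factor genes Tff2 and Tff3, whose small secreted proteins accompany mucins, had 3.45 and 3.32 in the authors' deposited table. Their terms were 11 and 1 for Tff2 and 10 and 1 for Tff3, so the normoxia library held 0 reads of either by the reading used here, and their counting intervals began at 2.23 and 1.96 with no upper end. Those 3 genes had intervals above 1 but did not pass the corrected test.

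The lower member was St6galnac1, which encodes a sialyltransferase that adds sialic acid to mucin sugars. It had terms of 15 and 79 and a log2 fold change of -2.40 in the authors' deposited table. Of the windows of 50 bases in its transcript, 34.9% also occur in transcripts of other genes, with the longest shared run, 402 bases, in the gene model Gm11735, so its value is uncertain where the authors' counting split or discarded shared reads. Of the 22 genes for cyclic AMP and hormone inputs, the guanylin gene Guca2a was listed in the uterus at 2.32 in the authors' deposited table. Guanylin is a peptide that stimulates chloride and bicarbonate secretion in the gut. Its terms of 5 and 1 gave an interval that included 1.

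**Figure D4:**
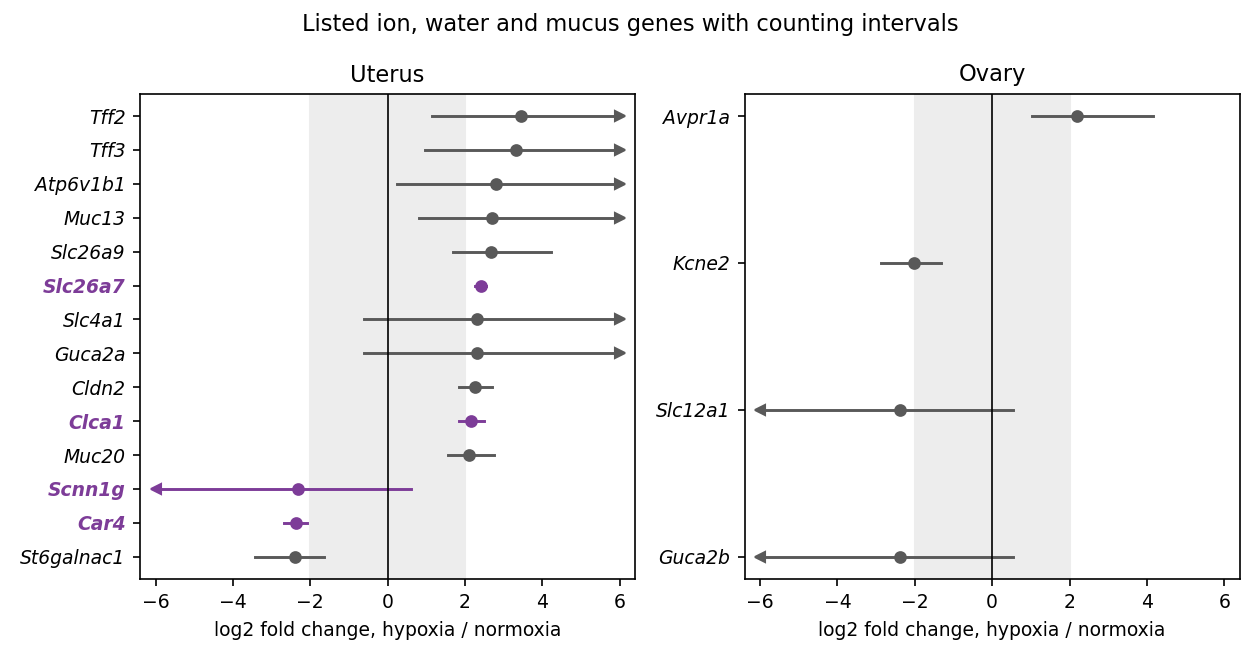
Points are log2 fold changes (hypoxia over normoxia) of the listed ion, water and mucus genes in the uterus (14 genes) and the ovary (4 genes), and lines are exact 95% counting intervals; arrowheads mark intervals that run past the axis or have no end, the grey band is the range the tables leave out, and the 4 named genes are purple. In the uterus Slc26a7, Clca1 and Car4 have short intervals, and that of Scnn1g crosses 0.

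In the ovary none of the 4 genes was listed, either by symbol or by a RefSeq synonym. With 1.01% of all protein-coding genes listed in the ovary table, 0 of 4 is near the background. Changes below the threshold, and whether these genes had reads in the ovary, cannot be seen in that table. The same 9 lists gave 4 ovary genes, 1 higher and 3 lower (1.89% of 212), beside 1.01% of all annotated protein-coding genes, 0.452% higher and 0.561% lower. Kcne2, which encodes an accessory subunit of potassium channels, was the 1 that differed beyond counting error, as did 8.31% of all listed ovary genes and 18.5% of the listed protein-coding ones. It had terms of 20 and 77 and a log2 fold change of -2.02 in the authors' deposited table. The vasopressin receptor gene Avpr1a had terms of 29 and 6, a 4.60-fold difference. Slc12a1 and Guca2b each rested on a hypoxia term of 1, with intervals that included 1.

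Markers of other tissues were looked at beside these values. Of all annotated protein-coding genes, 1.54% were listed in the uterus, and 25.2% of those listed differed beyond counting error. The marker lists were drawn up with earlier results of these data known, and no test was made of the difference in shares. Of 16 kidney tubule markers, 2 were listed in the uterus, both higher and beyond counting error. Cdh16, a cadherin of kidney tubules, had terms of 745 and 58 and a log2 fold change of 3.68 in the authors' deposited table, and Tinag, a basement membrane gene of tubules, had 4.75 on terms of 27 and 1. Defining kidney genes such as Umod, Slc12a1, Aqp2 and Slc34a1 were not listed in the uterus, which is near the background. Whether these genes had reads there cannot be seen from a list of changed genes. Of 15 goblet and secretory cell markers, 2 were listed, Clca1 itself and Tff3. Without Clca1, which the choice of genes fixed, 1 of 14 was listed, and Tff3 did not differ beyond counting error. Of 17 markers of the uterine epithelium, 1 was listed, the secreted protease inhibitor gene Spink1, at -2.12 in the authors' deposited table, from terms of 107 and 464. None of the 12 stroma and myometrium markers or the 18 squamous and urothelial markers was listed in the uterus. Beside the 1.54% above, the lack of a listed member in lists of this size is near the background. In the ovary 1.01% of all annotated protein-coding genes were listed, and 18.5% of those listed differed beyond counting error. There 4 of the 18 squamous and urothelial markers were listed, all lower, and 3 of them differed beyond counting error. These were the keratin genes Krt14 (terms of 80 and 701), Krt5 (87 and 548) and Krt1 (25 and 136), while Krt6a rested on terms of 1 and 16. The kidney markers Slc12a1 and Slc34a1 were also listed lower in the ovary, with a hypoxia term of 1 each and intervals that included 1. Their part in the ovary values was not tested. Summed marker levels are not in the tables, and the part of these cell types in the values of the 4 genes was not tested.

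For each of the 4 genes, the protein-coding uterus genes nearest in log2 fold change with terms summing to at least 100 were picked by rule. The likeness rests on 1 value per gene. Nearest to Slc26a7 were the ubiquitin-like gene Ubd at 2.37 and the sterol transporter gene Abcg5 at 2.36 in the authors' deposited table. Nearest to Car4 were the granzyme gene Gzmd at -2.38 and the endothelial protein C receptor gene Procr at -2.39 in the authors' deposited table. The terms of Procr, 131 and 684, were also close to the 116 and 599 of Car4. Nearest to Scnn1g were the hyaluronan synthase gene Has3 and the cytochrome P450 gene Cyp3a59, both at -2.28 in the authors' deposited table. Has3 had terms of 221 and 1072. The terms of Scnn1g sum to 6, so the rule itself fixed that its nearest genes rest on more reads. Genes with the same terms as Scnn1g were left out by that rule. Nearest to Clca1 were the actin-binding protein gene Avil at 2.18 and the glutamate receptor gene Grid1 at 2.12 in the authors' deposited table.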

How the data were processed

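RNA extracted with ISOGEN II was selected for poly(A) tails and made into directional libraries, per the labels' protocols. Tools named in the submitters' processing notes are DESeq2 2.11.40.7, HTSeq 0.9.1, HISAT2 2.2.1 and FastQC 0.73, with the build mm10; the annotation and strand setting are not stated there. The authors deposited per tissue a list of log2 fold changes with an absolute value of at least 2, per the file headers and the design text. The terms were recovered by continued fractions to a relative tolerance of 5e-14, for all 903 uterus and 854 ovary genes, with shared factors of 0.995 and 0.952. On simulated uterus and ovary lists, built as ratios of counts plus 1 times the same factors, 100% of pairs were recovered in lowest form. Because the simulation assumes the reading used here, it checks the arithmetic only. It cannot show that the terms are counts plus 1 or that true counts are recovered. Positions, exons and transcripts came from GENCODE M21, matched by symbol and chromosome, and 55450 annotated genes set the Bonferroni correction. The named genes were the 4, all listed genes of the 9 pathway lists (up to 8 a list), the 2 nearest per gene, and listed defining markers. 1 gene of the pathway lists is not reported here. The 4 genes and all lists were chosen with earlier results of these data known. Each group was 1 library, so p-values of the binomial test measure counting error only. Alternatives were a pseudocount of 5, terms as counts, no shared factor, stricter thresholds and other corrections. Python 3.11.15, NumPy 2.4.6 and SciPy 1.17.1 were used.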

Additional observations from a re-analysis of the deposited data

How the results depend on the processing

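No paired analysis was possible because each group was 1 library. The log2 fold changes of Slc26a7, Car4 and Clca1 moved by less than their counting intervals with a pseudocount of 5 (2.39, -2.34 and 2.10), and without the shared factor (2.41, -2.37 and 2.15). Scnn1g went from -2.33 to -0.85 with a pseudocount of 5, within its wide interval, because its terms are small. Reading the terms as counts leaves each value as it is by construction. Of the 14 listed pathway genes in the uterus, 2 passed an absolute log2 fold change of 3 and 7 had terms summing to at least 50. Of the 4 in the ovary, 0 and 1 did. Benjamini-Hochberg correction over the listed genes in place of Bonferroni raised the genes beyond counting error from 113 to 433 in the uterus and from 71 to 337 in the ovary, a correction that ignores the genes left out of the tables. Listing of the 4 genes in the ovary stayed at 0 when synonyms were searched. Depth limits Scnn1g, Slc4a1 and Guca2a in the uterus and Slc12a1 and Guca2b in the ovary, whose counting intervals include 1.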
